A study of Mus musculus with 9 samples.

Results

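The 10 genes described here, Dmrt2, Lbx1, Meox1, Meox2, Foxc2, Tbx1, Tbx15, Met, Itm2a and Lix1, belong to the dermomyotome and the limb muscle precursors of the embryo or have been tied there to the transcription factor Pax3. They were chosen by symbol from a list made with earlier results of these data known. Their counts beside the shares of all genes therefore describe the list and are not a test. Each was read from its only probe set that carried exactly 1 gene symbol. They are 10 of 19661 genes tested. The arrays held RNA from cultured skeletal muscle myoblasts, the dividing precursor cells of muscle, of Balb/c mouse background. Pax3-overexpressing, Pax7-overexpressing and empty vector (control) cells were measured on 3 arrays each, 9 in all. The growth medium was the same for all groups, F10 with 20% FBS (fetal bovine serum) and 4 ng/ml of bFGF, a fibroblast growth factor that keeps myoblasts dividing. The sources used here do not give the age of the mice, the promoter of the constructs, or whether a group was a clone, a pool or separate cultures, so the p-values rest on the spread among these arrays alone, and that spread may be technical.

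The dermomyotome is the epithelial upper layer of the somite, from which body wall and limb muscle arise. Its cells express Pax3, and at limb levels cells with Lbx1 and the receptor Met leave it and migrate into the limb bud. Pax7, the paralog of Pax3, is expressed in part of the same layer and later marks the satellite cells that repair adult muscle. In mouse embryos several of the 10 genes have been described as Pax3 targets, among them Met, Dmrt2 and Itm2a, and Foxc2 and Pax3 have been described as repressing each other in the somite.

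Levels are log2 intensities after the authors' RMA normalisation, so 1 unit is a doubling of signal. Levels of different probe sets do not compare amounts of RNA, and they are used here only to place a gene in the upper or lower 50% of signals. Pax3 stood at 11.05 ± 0.046 in Pax3 arrays, 6.82 ± 0.039 in Pax7 arrays and 5.83 ± 0.071 in control arrays (SD, n = 3 each). Pax7 stood at 8.18 ± 0.065 in Pax3 arrays, 12.28 ± 0.030 in Pax7 arrays and 10.51 ± 0.081 in control arrays. The Pax7 signal was thus lower in Pax3 arrays than in control arrays. All 8 myoblast markers, Pax7 among them, lay in the upper 50% of genes by mean level, and their mean level over the list was 11.03 to 11.04 in Pax3 arrays, 11.29 to 11.30 in Pax7 arrays and 11.36 to 11.38 in control arrays. That mean hides unequal changes: 5 of the 8 fell in each comparison with control, where 19.7% of all genes fell in Pax3 and 21.5% in Pax7 arrays, with median log2 differences of -0.49 in Pax3 and -0.54 in Pax7 arrays. Among the falls, the muscle filament gene Des differed by -0.52 in Pax3 and -1.33 in Pax7 arrays, Ncam1 by -0.53 and -1.13 and the cadherin Cdh15 by -0.73 and -0.65 (limma adjusted p at most 1.88e-06). Myf5 rose in both. Pax7, the gene introduced in the Pax7 arrays, differed from control by 1.77 there and by -2.33 in Pax3 arrays. The mean level, counts and medians of the list include it, so that mean does not rank the groups by myoblast signal. Endothelial markers were all in the lower 50% of genes, while the epithelial list averaged 6.22 to 6.28 in Pax3 arrays, 6.83 in each Pax7 array and 5.92 to 6.05 in control arrays, with 4 of 5 members past the threshold upward in each comparison with control. Over all genes, 19.8% passed upward in Pax3 and 21.6% in Pax7 arrays. The smooth muscle list averaged 8.49 to 8.55 in Pax3 arrays, 7.91 to 7.97 in Pax7 arrays and 9.58 to 9.65 in control arrays, with 3 of 4 members past the threshold downward in each comparison with control. The part of these shifts in the results below was not tested, and in bulk RNA fewer cells of a type and less RNA per cell cannot be told apart.

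The control arrays also differed from the others in sex-linked transcripts. Among Y-linked genes, Kdm5d, Uty and Eif2s3y ranged from 3.099 to 4.42 in Pax3 arrays and from 3.07 to 4.31 in Pax7 arrays, against 8.28 to 9.36 in control arrays. Xist, the RNA of the inactive X chromosome, averaged 11.96 in Pax3 arrays, 11.72 in Pax7 arrays and 4.77 in control arrays. Control arrays thus had the pattern of male cells, and Pax3 and Pax7 arrays that of female cells, so the control cells were not matched to the others. In each comparison with control, the introduced factor and this difference between the cells cannot be told apart. Pax7 and Pax3 arrays did not differ past the threshold in any of the 3 Y-linked genes (limma adjusted p = 0.551 to 0.718). Xist did pass between Pax7 and Pax3 arrays, at -0.24 (limma adjusted p = 0.0262), against 7.20 for Pax3 minus control and 6.96 for Pax7 minus control.

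Most of the 10 genes were lower in Pax3 arrays than in control arrays. In a limma fit over all 19661 genes, 8 of the 10 passed a Benjamini-Hochberg adjusted p of 0.05 downward, 1 passed upward (Itm2a) and 1 did not pass (Meox1), where 19.7% of all genes passed downward and 19.8% upward. The median log2 difference of the 10 was -0.47, against 0.02 over all genes. Against a minimum fold of 1.2, only 5 of the 8 falls passed, without Lbx1, Lix1 and Meox2. In Pax7 arrays 6 of the 10 were lower than in control arrays, 2 were higher (Lix1 and Itm2a) and 2 did not pass (Foxc2 and Meox1), with a median of -0.30 against 0.03 over all genes. Against a fold of 1.2, 4 of these 6 falls passed, without Lbx1 and Meox2, and Lix1 was the 1 rise that did. In that comparison 21.5% of all genes passed downward and 21.6% upward. Between the factors, 3 of the 10 were higher in Pax7 than in Pax3 arrays and 3 were lower, where 8.33% and 8.54% of all genes passed in those directions. The comparisons of Pax3 and of Pax7 with control share the same 3 control arrays, so their values are given side by side and are not independent.

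**Figure D1:**
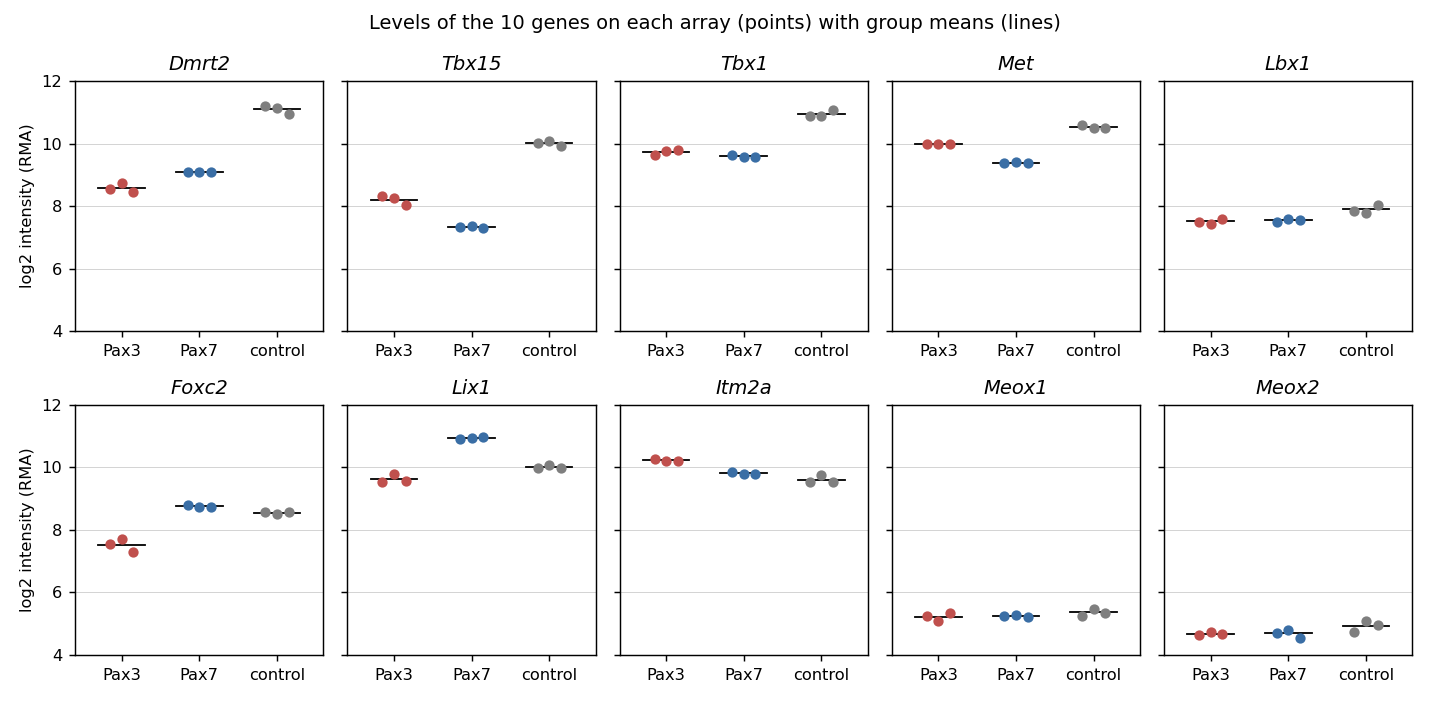
Log2 intensity (RMA, vertical axis) of the 10 genes on each of the 9 arrays, by group (horizontal axis: Pax3, Pax7, control). Points are arrays and lines are means of 3 arrays. Dmrt2, Tbx15, Tbx1, Met and Lbx1 sit below control on every Pax3 and Pax7 array, while Foxc2 and Lix1 are lowest on the Pax3 arrays and highest on the Pax7 arrays.

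Dmrt2, a DM-domain transcription factor of the dermomyotome that is needed for normal somite patterning in the mouse, showed the largest difference of the 10 between Pax3 and control arrays. It read 8.55, 8.75 and 8.45 in Pax3 arrays and 9.10 in each of the 3 Pax7 arrays, against 11.19, 11.13 and 10.96 in control arrays. The 3 groups did not overlap, and every control array lay above every array with an introduced factor. Dmrt2 was 5.70-fold below control in Pax3 arrays (log2 difference -2.51 ± 0.078, SE, limma adjusted p = 1.02e-09) and 3.98-fold below it in Pax7 arrays (-1.99 ± 0.078, limma adjusted p = 3.56e-09). Only 45 of the 19661 genes fell further than Dmrt2 in the Pax3 comparison. Dmrt2 in Pax7 arrays was 1.43-fold above that in Pax3 arrays (0.52 ± 0.078, limma adjusted p = 8.57e-04), a difference that did not pass against a fold of 1.2 (limma adjusted p = 0.0920). Its 3 values in Pax7 arrays were equal to every digit deposited, as was so for 1.84% of genes in these arrays, so their spread of 0 is not a measured error. That 0 enters the spread shared by the 3 groups, so the SEs and p-values given for Dmrt2 may be too small.

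Tbx15 and Tbx1 are T-box transcription factors, Tbx15 of limb and trunk mesenchyme and Tbx1 of the pharyngeal mesoderm that gives rise to head muscles. Tbx15 read 8.32, 8.25 and 8.05 in Pax3 arrays and 7.32, 7.36 and 7.29 in Pax7 arrays, against 10.03, 10.09 and 9.93 in control arrays. All 3 groups were apart, with Pax7 arrays lowest. It was 3.51-fold below control in Pax3 arrays (-1.81 ± 0.069, SE, limma adjusted p = 4.66e-09) and 6.48-fold below it in Pax7 arrays (-2.70 ± 0.069, limma adjusted p = 1.40e-10), the largest difference of any of the 10 genes. Pax7 arrays were also 1.84-fold below Pax3 arrays (-0.88 ± 0.069, limma adjusted p = 7.42e-06).

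Tbx1 read 9.64, 9.75 and 9.79 in Pax3 arrays and 9.64, 9.58 and 9.58 in Pax7 arrays, against 10.87, 10.89 and 11.06 in control arrays. Pax3 and Pax7 arrays overlapped, and both lay more than 1 unit below control. The log2 difference from control was -1.22 ± 0.061 in Pax3 arrays and -1.34 ± 0.061 in Pax7 arrays (SE, limma adjusted p = 4.15e-08 and 1.23e-08). The difference between Pax7 and Pax3 arrays was -0.13, with a 95% interval of -0.26 to 0.01 (limma adjusted p = 0.220).

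Met is the receptor tyrosine kinase for hepatocyte growth factor and is needed in mouse embryos for precursors to leave the dermomyotome. It read 9.9999, 9.9987 and 9.9833 in Pax3 arrays and 9.39, 9.40 and 9.38 in Pax7 arrays, against 10.59, 10.51 and 10.51 in control arrays. The groups formed 3 separate steps, with at most 0.078 units between the highest and lowest array of a group. Met was 1.46-fold below control in Pax3 arrays (-0.54 ± 0.040, SE, limma adjusted p = 8.06e-07) and 2.22-fold below it in Pax7 arrays (-1.15 ± 0.040, limma adjusted p = 1.22e-09). The step between Pax7 and Pax3 arrays was -0.61 ± 0.040 (limma adjusted p = 2.02e-06).

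Lbx1, a homeobox factor that marks migrating limb muscle precursors, differed less. It read 7.50, 7.44 and 7.59 in Pax3 arrays and 7.50, 7.57 and 7.55 in Pax7 arrays, against 7.86, 7.79 and 8.04 in control arrays. Every control array lay above the arrays of both other groups. The log2 difference from control was -0.39 ± 0.066 in Pax3 arrays and -0.35 ± 0.066 in Pax7 arrays (SE, limma adjusted p = 6.30e-04 and 0.00102), and neither passed against a fold of 1.2 (limma adjusted p = 0.231 and 0.400). Pax7 and Pax3 arrays overlapped, with a difference of 0.03 and a 95% interval of -0.11 to 0.18.

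Foxc2 and Lix1 had their lowest readings in Pax3 arrays and their highest in Pax7 arrays, with control between. Foxc2, a forkhead factor of paraxial mesoderm and vessel precursors, read 7.54, 7.69 and 7.29 in Pax3 arrays and 8.81, 8.74 and 8.73 in Pax7 arrays, against 8.58, 8.50 and 8.56 in control arrays. The 3 groups did not overlap, although Pax7 and control arrays lay close together. Foxc2 was 2.06-fold below control in Pax3 arrays (-1.04 ± 0.084, SE, limma adjusted p = 1.88e-06). In Pax7 arrays the difference from control was 0.21 ± 0.084, which did not pass (limma adjusted p = 0.0648) but passed when only the Pax7 and control arrays were fitted (limma adjusted p = 0.00256, range over alternatives 0.00256 to 1). It also passed without Pax3 array 3, whose reading was the lowest, or without Pax3 array 2 (limma adjusted p = 0.00494 and 0.0219). Pax7 arrays were 2.39-fold above Pax3 arrays (1.26 ± 0.084, limma adjusted p = 2.47e-06), and 74 of all genes tested rose further in that comparison.

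Lix1, a gene first described in the developing chick limb, read 9.53, 9.80 and 9.55 in Pax3 arrays and 10.91, 10.94 and 10.96 in Pax7 arrays, against 9.97, 10.09 and 9.98 in control arrays. No array of one group fell within another group. Lix1 was below control in Pax3 arrays (-0.39 ± 0.069, SE, limma adjusted p = 8.69e-04) and 1.90-fold above it in Pax7 arrays (0.93 ± 0.069, limma adjusted p = 7.32e-07). The fall in Pax3 arrays did not pass against a fold of 1.2 (limma adjusted p = 0.258). Pax7 arrays were 2.48-fold above Pax3 arrays (1.31 ± 0.069, limma adjusted p = 4.24e-07), with 65 genes rising further. The Pax7 probe set had the same order of group means, lowest in Pax3 arrays and highest in Pax7 arrays.

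Itm2a, a transmembrane protein gene on the X chromosome, was above control in both groups. It read 10.27, 10.21 and 10.20 in Pax3 arrays and 9.85, 9.79 and 9.77 in Pax7 arrays, against 9.53, 9.74 and 9.53 in control arrays. Pax3 arrays lay clearly apart from the others, while the lowest Pax7 array and the highest control array lay 0.035 units apart. Itm2a was 1.54-fold above control in Pax3 arrays (0.63 ± 0.060, SE, limma adjusted p = 7.35e-06) and 1.15-fold above it in Pax7 arrays (0.21 ± 0.060, limma adjusted p = 0.0159). The second call was lost without control array 1, without control array 3 or without Pax7 array 1 (limma adjusted p up to 0.0681). Pax7 arrays were below Pax3 arrays by -0.42 ± 0.060 (limma adjusted p = 5.77e-04), which did not pass against a fold of 1.2 (limma adjusted p = 0.246). Since Xist differed between these cells and the control cells, the X-linked genes were counted too. Of 573 X-linked genes, 23.0% were higher and 16.6% lower in Pax3 than in control arrays with a median log2 difference of 0.03, against 20.1% and 20.5% of 14772 autosomal genes with a median of 0.02. In Pax7 arrays 22.7% of X-linked genes were higher and 18.2% lower than in control arrays, against 21.9% and 22.3% of autosomal genes.

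Meox1 and Meox2, homeobox factors of the early somite, lay in the lower 50% of genes by mean level, while the other 8 genes lay in the upper 50%. No detection calls were used for these arrays, so it is not known whether either signal lay above background. Meox1 read 5.26, 5.07 and 5.33 in Pax3 arrays and 5.25, 5.27 and 5.22 in Pax7 arrays, against 5.26, 5.47 and 5.34 in control arrays. The groups overlapped, and the 95% interval of the difference from control was -0.30 to 0.02 in Pax3 arrays and -0.27 to 0.05 in Pax7 arrays (limma adjusted p = 0.174 and 0.271). Meox2 read 4.64, 4.72 and 4.67 in Pax3 arrays and 4.71, 4.81 and 4.55 in Pax7 arrays, against 4.75, 5.09 and 4.96 in control arrays. Pax3 and control arrays of Meox2 did not overlap, while Pax7 and control arrays did. Its difference of -0.25 ± 0.087 in Pax3 arrays and -0.24 ± 0.087 in Pax7 arrays just passed (SE, limma adjusted p = 0.0382 and 0.0416). Each of these calls was lost when any of 6 of the 9 arrays was left out, with limma adjusted p up to 0.155 for Pax3 and 0.167 for Pax7, and when only the arrays compared were fitted (limma adjusted p = 0.0506 and 0.0798).

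**Figure D2:**
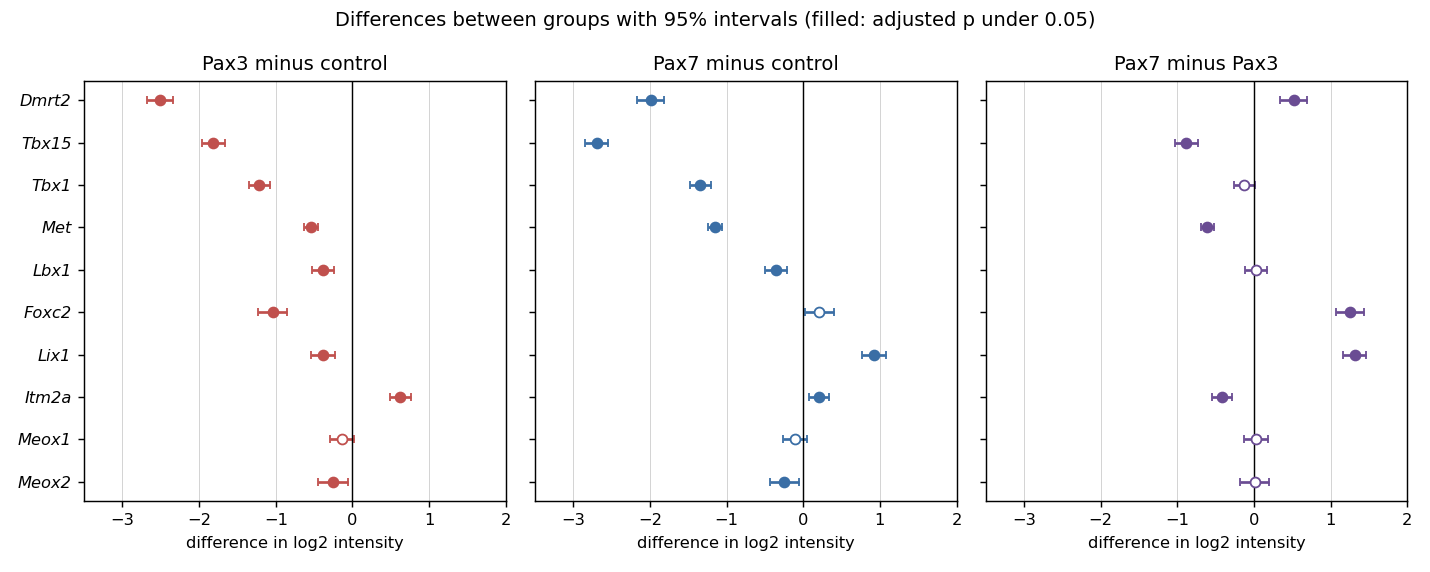
Difference in log2 intensity (horizontal axis) of the 10 genes (vertical axis) for Pax3 minus control, Pax7 minus control and Pax7 minus Pax3. Points are limma estimates, bars are 95% intervals, and filled points passed an adjusted p of 0.05. Dmrt2 at -2.51 and Tbx15 at -2.70 lie farthest from 0, and Foxc2 and Lix1 lie above 1 in the panel of Pax7 minus Pax3.

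Upstream sequences are shown for 4 of the genes, from 3 of the kinds of pattern. Dmrt2 and Met were below control in both groups, Itm2a was above control in both, and Lix1 lay on opposite sides. The RefSeq promoter table (GRCm38.p6) had entries for 6 of the 10, in 7 windows. In the 250 bases before each start, matches on both strands were sought to ATTA, the core that homeodomains such as those of Pax3 and Pax7 bind, to GTCAC, a core of paired-domain sites, and to the paired homeodomain sites TAATNNNATTA and TAATNNATTA, each of which contains ATTA. Matches are in capitals. Dmrt2 is given at chr19:25672161-25672393 (plus strand), Itm2a at chrX:107403361-107403610 (minus strand) and Lix1 at chr17:17402436-17402685 (plus strand), each outside the annotated gene. Met is given as 30 bases around its match at chr6:17463893-17463922 (plus strand), because its window lies within the annotated gene.
Dmrt2: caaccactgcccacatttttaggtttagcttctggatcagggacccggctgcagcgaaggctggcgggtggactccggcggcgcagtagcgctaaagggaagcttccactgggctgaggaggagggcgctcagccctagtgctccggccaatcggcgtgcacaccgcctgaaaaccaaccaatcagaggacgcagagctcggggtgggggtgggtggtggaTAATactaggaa
Met: gttgcccggctgaGTCACgggccgggcagg
Itm2a: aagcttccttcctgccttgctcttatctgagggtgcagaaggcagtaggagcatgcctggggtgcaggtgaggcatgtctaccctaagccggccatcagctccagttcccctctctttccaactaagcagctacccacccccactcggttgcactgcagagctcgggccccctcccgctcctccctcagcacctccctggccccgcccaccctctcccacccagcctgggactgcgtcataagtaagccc
Lix1: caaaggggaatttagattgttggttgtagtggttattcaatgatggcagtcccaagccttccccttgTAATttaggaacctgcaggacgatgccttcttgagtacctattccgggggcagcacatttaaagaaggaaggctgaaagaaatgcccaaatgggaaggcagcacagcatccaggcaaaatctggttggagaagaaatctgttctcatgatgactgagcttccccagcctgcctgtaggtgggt

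Of the 7 windows, 3 held ATTA (Dmrt2, Meox2 and Lix1) and 2 held GTCAC (Met and 1 of the 2 Tbx1 windows), where 54.9% and 39.8% of 32851 promoter windows did. The paired sites TAATNNNATTA and TAATNNATTA matched in 0 of the 7, where 0.463% and 0.384% of all windows held them. The match lay 51 to 47 bases before the start in Met, 29 to 26 bases before it in Dmrt2 and 183 to 180 bases before it in Lix1. These short matches describe the letters in the windows and do not show that a factor binds.

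Other genes of the dermomyotome and limb precursors, taken from a list of 24 of which 22 were measured, were counted in the same way. That list was likewise made with earlier results of these data known. In Pax3 arrays 11 of the 22 fell and 3 rose, and 8 stayed short of the threshold. The median log2 difference of the 22 was -0.18, against 0.02 over all genes. In Pax7 arrays 9 fell and 5 rose, and 8 stayed short of it, with a median of -0.08 against 0.03. Over all genes, 19.7% fell and 19.8% rose in Pax3 arrays, and 21.5% fell and 21.6% rose in Pax7 arrays. The Notch ligand Dll1 differed from control by -2.18 ± 0.055 in Pax3 arrays and -2.68 ± 0.055 in Pax7 arrays (SE). The growth factor receptor Fgfr4 differed by -1.46 ± 0.052 and -2.28 ± 0.052 and the Wnt effector Lef1 by -1.33 ± 0.054 and -1.59 ± 0.054 in the same comparisons. Myf5, the myogenic factor that acts downstream of Pax3 in the embryo, rose by 1.97 ± 0.056 in Pax3 arrays and 2.02 ± 0.056 in Pax7 arrays. These 8 differences had limma adjusted p of at most 7.26e-09.

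Between the factors, 3 of the 22 were higher in Pax7 than in Pax3 arrays, 5 were lower and 14 did not pass. Of all genes, 8.33% passed upward and 8.54% downward there. The chemokine receptor Cxcr4 and the ephrin receptor Epha4, both described on limb muscle precursors of the embryo, were among the higher. Cxcr4 stood at 8.83 ± 0.024 in Pax7 arrays and 8.09 ± 0.106 in Pax3 arrays (SD, n = 3 each), a difference of 0.74 ± 0.057 (SE, limma adjusted p = 6.84e-06). Control arrays, at 8.62 ± 0.059, lay between, so that Cxcr4 was below control in Pax3 arrays (-0.53, limma adjusted p = 2.01e-05) and above it in Pax7 arrays (0.21, limma adjusted p = 0.0106). Epha4 stood at 8.20 ± 0.043 in Pax7 arrays and 7.22 ± 0.114 in Pax3 arrays, a difference of 0.98 ± 0.059 (SE, limma adjusted p = 1.17e-06). Its control level was 8.27 ± 0.052. Epha4 was thus below control in Pax3 arrays (-1.05, limma adjusted p = 1.02e-07) and did not pass in Pax7 arrays (-0.07, limma adjusted p = 0.390). The cofactor Eya1 had the opposite order and was lower in Pax7 than in Pax3 arrays (-0.74 ± 0.072, limma adjusted p = 3.49e-05).

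Of 16 genes of Met receptor signalling, 5 were higher than control in Pax3 arrays, 2 lower and 9 not past the threshold, and in Pax7 arrays 6 were higher, 2 lower and 8 not past. The shares of all genes were 19.8% higher and 19.7% lower in Pax3 arrays and 21.6% and 21.5% in Pax7 arrays. With only 16 genes, a departure of these counts from those shares was not tested. The ligand Hgf did not pass in either (0.09 and 0.11, limma adjusted p = 0.166 and 0.0866). Its mean level was low, at 3.96 in Pax3 arrays, 3.98 in Pax7 arrays and 3.87 in control arrays. Without detection calls it is not known whether the Hgf signal lay above background, so these values do not show an unchanged ligand. Gab1, the docking protein that relays the Met signal, rose while Met itself fell, with 0.46 ± 0.054 in Pax3 arrays and 0.91 ± 0.054 in Pax7 arrays (SE, limma adjusted p = 3.62e-05 and 1.07e-07). Spint1, an inhibitor of the proteases that activate hepatocyte growth factor, rose by 0.80 ± 0.048 in Pax3 arrays and 1.76 ± 0.048 in Pax7 arrays (limma adjusted p = 1.65e-07 and 2.06e-10). The phosphoinositide 3-kinase subunit Pik3r1 rose by 0.38 in Pax3 arrays and 0.68 in Pax7 arrays, and Plxnb1, a plexin that associates with Met, fell by 0.93 in Pax3 arrays and 0.36 in Pax7 arrays (limma adjusted p at most 4.03e-04). The urokinase gene Plau fell by 0.60 in Pax7 arrays (limma adjusted p = 2.02e-06).

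Of 17 paralogs of the 10 genes measured, 5 were higher and 1 lower in Pax3 than in control arrays with 11 not past, and 7 were higher and 3 lower in Pax7 arrays with 7 not past. The shares of all genes were 19.8% higher and 19.7% lower in Pax3 arrays and 21.6% and 21.5% in Pax7 arrays. Tbx20, a T-box factor best known in the heart, stood at 5.03 ± 0.081 in Pax3 arrays and 4.72 ± 0.128 in Pax7 arrays, against 7.46 ± 0.080 in control arrays, and fell by 2.43 and 2.74 (limma adjusted p = 6.12e-10 and 1.49e-10). Dmrta1, a relative of Dmrt2, had the opposite direction and rose by 1.45 ± 0.092 in Pax3 arrays and 2.63 ± 0.092 in Pax7 arrays (SE, limma adjusted p = 2.65e-07 and 1.40e-09). Foxc1, the closest relative of Foxc2, was lower in Pax7 than in Pax3 arrays (-0.56 ± 0.075, limma adjusted p = 3.85e-04), the reverse of Foxc2. Itm2c rose by 0.30 in Pax3 arrays and 0.55 in Pax7 arrays (limma adjusted p = 3.78e-04 and 2.31e-06), and Tbx4, a hindlimb factor, by 0.39 and 0.57 (limma adjusted p = 7.54e-04 and 3.85e-05).

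**Figure D3:**
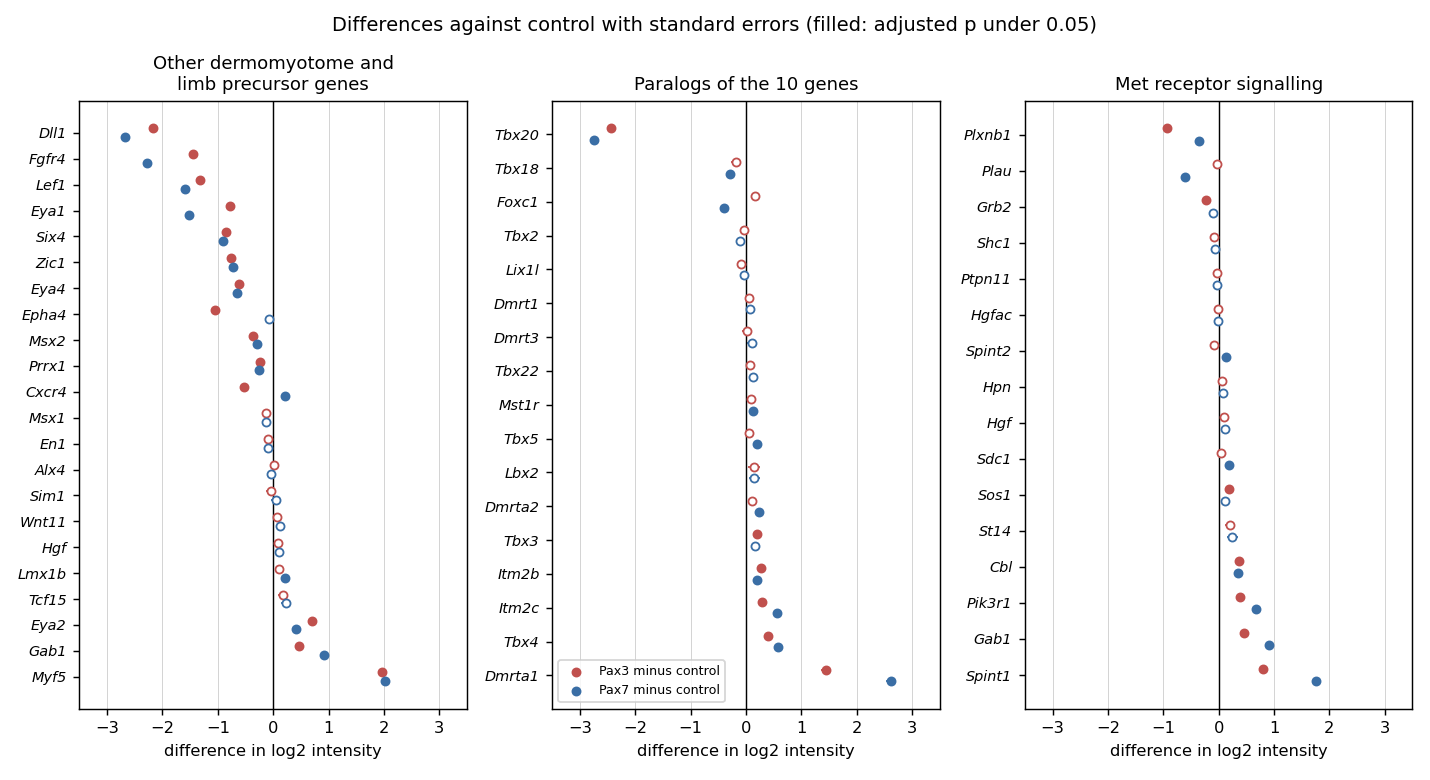
Difference in log2 intensity from control (horizontal axis) for the genes of 3 related lists (vertical axis), in Pax3 arrays (red) and Pax7 arrays (blue). Points are limma estimates, bars are standard errors and filled points passed an adjusted p of 0.05. Dll1, Fgfr4 and Lef1 lie below -1 in both, Myf5 and Dmrta1 lie above 1, and Cxcr4 lies on opposite sides of 0.

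Of 11 genes of the sclerotome and tendon, compartments of the somite beside the dermomyotome, 2 were higher and 2 lower in Pax3 than in control arrays, and 2 were higher and 4 lower in Pax7 arrays. In Pax3 arrays these counts are close to the 19.8% and 19.7% of all genes, and in Pax7 arrays 21.6% of all genes were higher and 21.5% lower. The tendon factor Scx fell by 0.64 in Pax3 arrays and 0.63 in Pax7 arrays, and the cartilage factor Sox9 by 0.53 and 0.81 (limma adjusted p at most 7.15e-05). Pax9, a sclerotome factor, rose by 0.27 in Pax3 arrays and 0.75 in Pax7 arrays (limma adjusted p = 0.0171 and 1.31e-05), and the tendon factor Mkx rose by 0.59 in Pax3 arrays (limma adjusted p = 1.68e-04). Of 4 regulators of head muscle, which work with Tbx1 in the embryo, 0 passed in Pax3 arrays by limma, with 1 (Msc, at 0.12) at an unadjusted p under 0.05 (limma adjusted p = 0.0844). Tcf21 passed in Pax7 arrays at 0.18 (limma adjusted p = 0.0410).

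For the 6 genes whose group means spanned at least 1 log2 unit, the genes most like them over the 9 arrays were sought by Pearson's r among 1411 others with such a span. The arrays fall into 3 groups, so these r values mostly describe 3 group means and are given with no test. Tbx15 was most like the nebulin gene Neb and periostin Postn (r = 0.999 and 0.998), and Met was most like Srpx2 and Gal3st3 (r = 0.999 and 0.998). Dmrt2 was most like the transferrin receptor Tfrc and Fbxo10 (both 0.997), and Tbx1 was most like the proteoglycan Cspg4 and Ralgds (r = 0.998 and 0.997). Lix1 was most like the calcium-regulated factor Nfatc2 and Slc25a13 (r = 0.993 and 0.992). Foxc2 had the weakest likeness, to Garem1 and Plce1 (r = 0.989 and 0.976).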

How the data were processed

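Per the submitters' processing notes, the authors made the log2 intensities with RMA in R 2.10.0. RMA subtracts background, quantile-normalises arrays and summarises probes, so values are relative within this set. The sources used here give no filter, genome build or annotation version. Names came from the platform annotation (20777 probe sets with 1 symbol, 232 with several, 4659 with none), and 20696 gene identifiers matched RefSeq's table for GRCm38.p6. The probe set with the highest mean was kept for each of 19661 genes. limma 3.58.1 (R 4.3.3) fitted a mean per group to the 9 arrays, with 6 residual and 4.37 prior degrees of freedom, with Benjamini-Hochberg adjustment over all genes. In simulated data with the spread of these arrays, 20 of 50 differences of 0.25 log2 units and 42 of 50 of 0.5 were called. Far fewer genes differed there than were called between Pax7 and control arrays, so these rates do not carry over to the real comparison. Other probe set summaries, filters, priors, scalings, a replicate block and omission of each array were tried. Array medians ran from 6.40 to 6.48, and the number of arrays limits the precision. No scan dates or batches were used.

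The members and gene lists were chosen with earlier results of these data known. Named genes are the 10 members, the genes that check the arrays, and up to 4 genes past the threshold with the largest change per list and comparison, or up to 2 with the smallest p where none passed. For members spanning 1 log2 unit or more, the 2 genes with the highest r are named too. Hgf, the ligand of Met, lies outside this rule and was named after its values were seen. The short motifs ATTA and GTCAC were chosen after longer ones had no match in the windows.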

Additional observations from a re-analysis of the deposited data

Results flagged for a closer look

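Lix1 lay on opposite sides of control in the 2 groups: it was below control on all 3 Pax3 arrays and above control on all 3 Pax7 arrays. The control cells also differed from both groups in sex-linked transcripts, so these 2 differences cannot be ascribed to the factors alone. Opposite calls against control were made for 82 of all genes tested (0.417%). The fall of Lix1 in Pax3 arrays did not pass against a fold of 1.2 (limma adjusted p = 0.258). The difference of the 2 changes, which is Pax7 minus Pax3, was 1.31 ± 0.069 on the log2 scale (SE, n = 3 per group, limma adjusted p = 4.24e-07), and it ranged from 1.27 to 1.40 over 17 alternatives. The other 9 genes did not pass in opposite directions, although Foxc2 had a difference of -1.04 in Pax3 arrays and 0.21 in Pax7 arrays (limma adjusted p = 1.88e-06 and 0.0648).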

How the results depend on the processing

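Over the 17 alternatives tried, Dmrt2, Tbx15, Tbx1 and Met kept their direction and passed in both comparisons with control, as did Foxc2 and Itm2a in Pax3 arrays and Lix1 in Pax7 arrays. Testing against a fold of 1.2 left 5 genes lower in Pax3 than in control arrays (8 without it) and 1 higher in Pax7 than in control arrays (2 without it), and reduced all genes called to 3264 in Pax3 and 3819 in Pax7 arrays against control and to 784 between Pax7 and Pax3 (7780, 8485 and 3316 without it). Leaving out 1 array at a time gave 7 to 8 of the 10 lower in Pax3 arrays and 1 to 3 higher in Pax7 arrays against control, the lowest count without control array 1, control array 3 or Pax7 array 1, where Itm2a was lost. Between Pax7 and Pax3, the differences of Lbx1, Meox1 and Meox2, which did not pass, turned sign. With 1 array left out, Lbx1 ranged from -0.0059 to 0.071, Meox1 from -0.046 to 0.086 and Meox2 from -0.049 to 0.078. Meox2 was -0.0089 after repeated quantile normalisation. The difference of Tbx1 did not pass either but kept its sign, from -0.17 to -0.093 over the 17 alternatives. With the replicate block the counts were again 8 lower and 1 higher for Pax3, 6 lower and 2 higher for Pax7 and 3 and 3 between the factors, and all genes called numbered 7902, 8707 and 3328. Correlations of deviations from group means did not settle whether replicate numbers pair the samples. Same-numbered arrays correlated at 0.070 to 0.218 between Pax3 and control and at -0.026 to 0.011 between Pax7 and control. Between Pax7 and Pax3 they correlated at 0.009 to 0.225. Differently numbered arrays ranged from -0.196 to 0.123, -0.082 to 0.103 and -0.247 to 0.246 in the same order of comparisons. Centring or repeated quantile normalisation moved the median of all genes by less than 0.1 log2 units. Meox1 and Meox2 had no value without the lowest 50% of genes. The low signal of Meox1 and Meox2 and 3 arrays per group limit what can be seen there.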

Other observations

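Markers of other cell types were called in these shares, where 19.8% of all genes were higher and 19.7% lower in Pax3 arrays and 21.6% and 21.5% in Pax7 arrays. Of 7 fibroblast markers, 1 was higher and 1 lower in Pax3 than in control arrays, and 2 were higher and 1 lower in Pax7 arrays, with Col3a1 at -0.26 in Pax3 and -0.88 in Pax7 arrays (limma adjusted p = 0.00135 and 5.94e-08). Of 5 macrophage and leukocyte markers Cd68 alone passed, at 1.36 and 2.04 (limma adjusted p = 1.55e-08 and 3.81e-10). Of 5 adipocyte markers, the regulator Pparg was higher (1.12 and 1.33) and Cebpa lower (-1.18 and -1.05), with limma adjusted p of at most 3.16e-06. Adipoq and Plin1 were also higher in Pax7 arrays (0.21 and 0.24, limma adjusted p = 0.0182 and 0.0422), so that 4 of the 5 were called there. Of 5 endothelial markers, Cdh5 was higher in Pax7 arrays (0.18, limma adjusted p = 0.0116), and Tek was higher in Pax3 (0.38) and Pax7 arrays (0.74) than in control (limma adjusted p = 2.95e-04 and 1.14e-06). Of 3 neural markers measured, the neurofilament Nefl rose by 5.68 in Pax3 and 5.62 in Pax7 arrays and the tubulin Tubb3 fell by 1.00 and 0.72 (limma adjusted p of at most 2.91e-05). Krt18 led the epithelial list at 0.66 and 2.44, and Tagln and Cnn1 led the smooth muscle list with -1.60 and -2.46 in Pax3 arrays and -3.20 and -2.55 in Pax7 arrays.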
